A study of Mus musculus with 16 samples.

Results

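The wild-type arm of the series was used to ask how 10 weeks of the Western diet (WD) changed the transcriptome of the terminal ileum. It consists of 8 of the 16 libraries of the series, 4 from mice on the WD (WT-WD) and 4 from mice on the normal diet (WT-ND), chosen by their labels alone. The mice were wild-type (*Tas1r3*+/+) C57BL/6 littermates of the knockout line, aged 5 to 6 weeks at the start. WT-WD mice were given the 60% high-fat pellets D12492 and 30% sucrose to drink, and WT-ND mice the matched pellets D12450J and plain water. Each group holds males M1 and M2 and females F1 and F2, and each library is whole terminal ileum, so that fewer cells of a type and less RNA per cell cannot be told apart. Of the 23299 genes in the deposited table, the 18576 with a level of at least 1 RPKM in at least 2 of the 8 libraries are described. RPKM is the number of reads of a transcript relative to its length in kilobases and to the depth of the library. Transcript values were summed to genes. Each library was divided by a scaling factor, because the totals were 817011 to 819374 in WT-ND and 542371 to 607087 in WT-WD, and levels are given below as scaled RPKM in the order M1, M2, F1 and F2. Whether the values of both diets were normalized in the same way is not given in the sources used here, and a difference in that step cannot be told apart from the diet.

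The ileum takes up the last of the dietary fat and recovers bile acids. Its epithelium contains absorptive enterocytes, mucus-secreting goblet cells, Paneth cells that release antimicrobial peptides, and hormone-secreting enteroendocrine cells. Cells sense sterols and carbohydrate through the transcription factors SREBP and ChREBP, which drive the enzymes of cholesterol and fatty acid synthesis, and fat in the diet is known to lower these enzymes in liver and gut. Below the epithelium lie T cells, IgA-secreting plasma cells and macrophages, and the mesenteric border carries fat tissue.

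The depth was read from the step between low values. One read on a transcript of 1 kb corresponds to 0.0727 to 0.139 RPKM in these libraries, which limits the precision of low levels. The female-specific transcript *Xist* was at 29.4 to 54.1 scaled RPKM in females and at most 0.116 in males. *Fabp6*, the bile acid carrier that marks ileal enterocytes, was at 2925, 3416, 3312 and 5166 in WT-ND and 1494, 1857, 1180.5 and 9217 in WT-WD, so each library carried the marker. The library WT-WD F2 stood apart. Its scaling factor was 0.663 against 0.895 to 1.30 in the others, and 15205 genes reached 1 RPKM in it against 16845 to 17683. Counts are therefore also given without it. Of the 474064 values of the 8 libraries, 92 carried more than 6 significant digits, in 45 genes, with 15 of these values in WT-ND and 77 in WT-WD. The nature of these values was not tested, and genes named below that hold them are marked.

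Among the 18576 genes, 1 (0.00538%) passed an adjusted p under 0.01 with a fold change of at least 2 in limma's moderated test with Benjamini-Hochberg adjustment, and the same gene alone passed an adjusted p under 0.05. It was higher in WT-WD. At an unadjusted p under 0.05 there were 3067 genes (16.5%), of which 1350 (7.27%) were higher and 1717 (9.24%) lower in WT-WD. The 4 WT-WD levels lay above the 4 WT-ND levels in 870 genes (4.68%) and below them in 1133 genes (6.1%). At an adjusted p under 0.2, a threshold added after the data were seen, there were 1132 genes (6.09%), 435 (2.34%) higher and 697 (3.75%) lower. Without WT-WD F2, 426 genes (2.29%) passed an adjusted p under 0.05, 87 (0.468%) of them higher and 339 (1.82%) lower in WT-WD. At an unadjusted p under 0.05 there were then 1919 genes (10.3%) higher and 2609 (14%) lower, the background for the counts without that library. With each other library left out, 1 to 11 genes passed an adjusted p under 0.05. An adjusted p given below without WT-WD F2 thus comes from the leave-out with the most genes passing, and the other leave-outs need not share it. As 1 gene passed with all 8 libraries, the other genes are described by their levels and by counts at an unadjusted p under 0.05, and "higher" or "lower" gives the direction of the means. The background for the list counts with all 8 libraries is the 7.27% of genes higher and 9.24% lower. In small lists, 1 or 2 members can lie near these shares. With 4 libraries a group, the smallest p that the two-sided exact permutation test of a single gene can give is 0.0286.

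**Figure D1:**
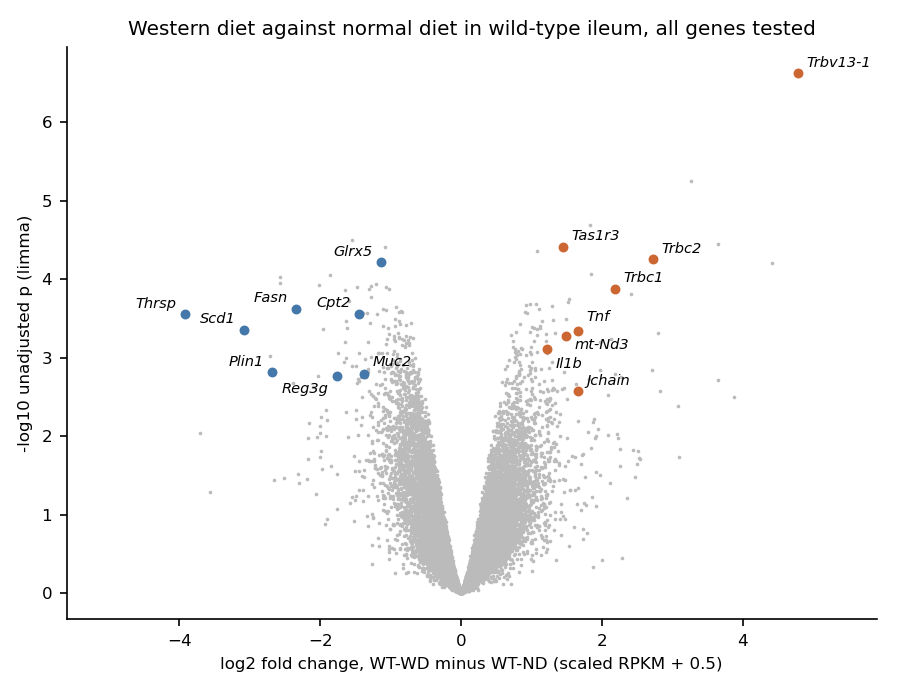
The log2 fold change between WT-WD and WT-ND (x axis) is plotted against −log10 of the unadjusted p from limma (y axis) for the 18576 genes tested, each a point. *Trbv13-1*, the gene past the threshold, lies alone at the top right with a log2 fold change of 4.79, and *Thrsp*, *Scd1* and *Fasn* lie far to the left.

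The diet difference followed the base composition of the transcripts. Across 18178 genes with a known GC content, Spearman's rho between the log2 fold change and GC content was −0.396, given as a description since genes of the same libraries are not independent. In the 1818 genes with the lowest GC content, 27.2% were higher and 0.770% lower in WT-WD at an unadjusted p under 0.05, and in the 1818 with the highest GC content 1.16% were higher and 21.1% lower. The deviation of single libraries from the mean of each gene ran from a rho of −0.405 with GC content in WT-WD M2 to 0.399 in WT-ND F1, so that libraries of 1 diet also differed from each other in this trend. After this trend was subtracted within each library, a step added after the data were seen, rho was 0.0213, 1987 genes (10.7%) had an unadjusted p under 0.05, 876 (4.72%) higher and 1111 (5.98%) lower. Without WT-WD F2, 1732 genes (9.32%) were then higher and 2143 (11.5%) lower at an unadjusted p under 0.05, and 14 genes (0.0754%) passed an adjusted p under 0.05, 4 (0.0215%) higher and 10 (0.0538%) lower. The part of GC content in the results below was not tested. Corrected values are given for the lists and genes that carry the main results.

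**Figure D2:**
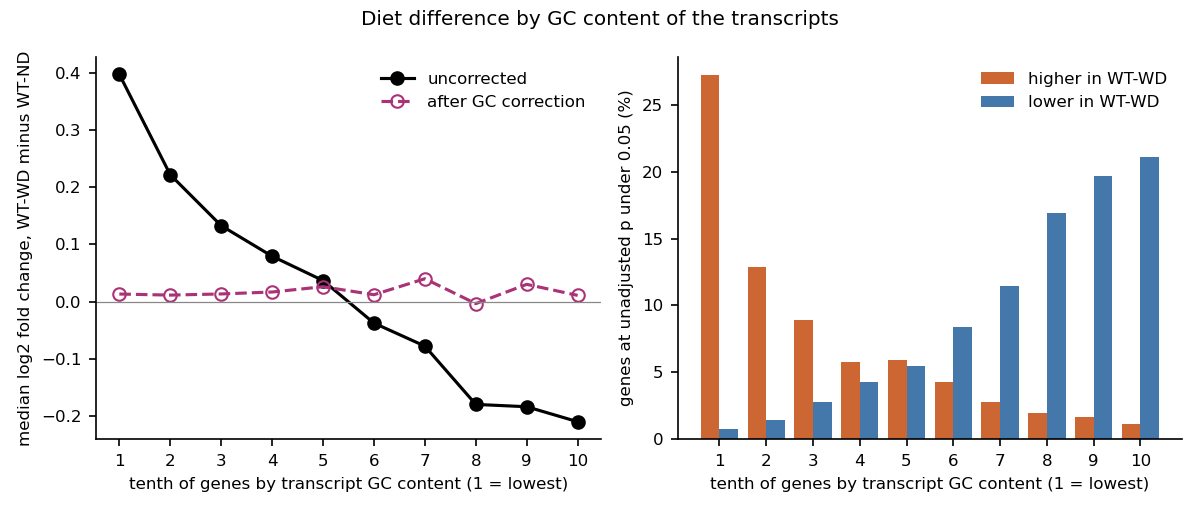
Genes are grouped in 10 bins by GC content (x axes), with the median log2 fold change between WT-WD and WT-ND on the left and the percentage of genes at an unadjusted p under 0.05 in each direction on the right. The median goes from 0.40 in the lowest bin to −0.21 in the highest, and is at most 0.04 in size in each bin after the correction.

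The gene that passed the threshold was *Trbv13-1* (ENSMUSG00000076467.3, chromosome 6, 41116007 to 41116468, plus strand, GRCm38), a variable segment of the T cell receptor beta chain, which is joined to a constant segment in each maturing T cell. Its level was 3.78, 4.18, 2.87 and 2.15 in WT-ND and 95.5, 48.6, 189 and 115 in WT-WD. The lowest WT-WD library was thus far above the highest WT-ND library, in males and females alike. *Trbv13-1* rose in WT-WD with a log2 fold change of 4.79 ± 0.37 (SE), a fold change of 27.6 (adjusted p = 0.00441, limma, n = 4 libraries a group). Its log2 fold change was 4.82 after the GC correction. When each library was left out in turn, the adjusted p was 0.000997 to 0.0339, above 0.01 in 6 of the 8 cases, including 0.0339 without WT-WD F2. The sequence below is the start of its transcript in the GENCODE annotation, bases 1 to 300 of 334. Where on the transcript the reads lay was not examined.

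Trbv13-1: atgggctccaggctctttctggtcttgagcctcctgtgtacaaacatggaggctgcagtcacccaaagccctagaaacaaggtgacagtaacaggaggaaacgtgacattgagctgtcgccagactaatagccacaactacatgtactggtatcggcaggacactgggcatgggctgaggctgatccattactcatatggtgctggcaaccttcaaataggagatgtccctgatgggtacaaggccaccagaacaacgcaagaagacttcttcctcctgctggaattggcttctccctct

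The constant segments of the receptor were also higher. The constant segment *Trbc2* was at 4.35, 4.54, 8.31 and 7.37 in WT-ND and 31.6, 20.8, 74.4 and 62 in WT-WD (log2 fold change 2.72 ± 0.40, adjusted p = 0.104, limma). *Trbc1* was at 4.56, 5.21, 8.26 and 7.66 in WT-ND and 22.3, 16.8, 46.3 and 48.1 in WT-WD (log2 fold change 2.19 ± 0.36, adjusted p = 0.106, limma). Neither overlapped between the diets. The adjusted p values (limma) of *Trbc2* and *Trbc1* were 0.0383 and 0.0401 without WT-WD F2, and 0.136 and 0.213 without WT-ND M1. With sex as a covariate both were 0.00784, under the threshold that they missed in the main fit. The constant segments share 321 of the 662 stretches of 31 bases of the *Trbc2* transcript, so their reads may have been divided between them. The alpha chain constant segment *Trac* was at 1.66, 3.49, 7.26 and 5.08 and 14.4, 5.34, 25.6 and 28.7, overlapping (log2 fold change 1.87, adjusted p = 0.176, limma). The neighbouring segment *Trbv13-2* reached at most 2.26 in any library, and of the 4 variable segments that passed the filter on low values, 2 were higher and 2 lower. The 15 T cell markers had 3 members higher and 0 lower at an unadjusted p under 0.05, with a median log2 fold change of 0.35 against 0.03 over all genes tested. Their summed level was 31.7 to 87.2 in WT-ND and 44.8 to 110.6 in WT-WD, so it overlapped between the diets. Without WT-WD F2 the markers had 2 members higher and 2 lower, with a median of 0.10. *Cd8b1*, a chain of the CD8 co-receptor, was at 0.197, 0.0847, 0.969 and 0.533 in WT-ND and 1.73, 1.16, 2.33 and 1.63 in WT-WD (adjusted p = 0.161, limma).

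Immunoglobulin variable segments were also higher on balance. Of 190 variable segments tested, 146 were higher and 44 lower in WT-WD, 38 and 4 at an unadjusted p under 0.05, with a median log2 fold change of 0.73 with and without the GC correction. Their summed level was 2656 to 8099 in WT-ND and 3942 to 9927 in WT-WD, so it overlapped. All WT-WD levels lay above all WT-ND levels in 11 of the 190, beside 4.68% of all genes. Of 11 constant genes, 1 was higher and 0 lower at an unadjusted p under 0.05. Their median was 0.90 in males and −0.57 in females. *Igkv3-5*, a kappa light chain variable segment, was at 5.34, 5.92, 5.43 and 2.26 in WT-ND and 24.8, 68.9, 49.2 and 59.7 in WT-WD (log2 fold change 3.27 ± 0.36, adjusted p = 0.0525, limma). Reads of such segments can be shared between members of their families. Plasma cell markers had 2 of 8 members higher and 0 lower, with a median of 0.53, or 0.65 after the GC correction. Their summed level was 1975 to 5304 in WT-ND and 3872 to 8169 in WT-WD, and overlapped. *Jchain*, which links the units of secreted IgA, was at 161, 278, 104 and 77.5 in WT-ND and 669, 391, 269.5 and 524 in WT-WD, so that WT-WD F1 lay below WT-ND M2 (log2 fold change 1.66, 1.22 after the GC correction, adjusted p = 0.148, limma). *Igha*, the heavy chain of IgA, was at 2676, 4767, 3249 and 1619.5 and 7272, 4504, 3442 and 3342 and overlapped.

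The inflammatory cytokines that the study names were higher in part. *Il1b*, which encodes interleukin-1β, was at 0.796, 0.834, 1.7 and 1.25 in WT-ND and 2.84, 2.82, 3.21 and 4.31 in WT-WD, without overlap (log2 fold change 1.22 ± 0.25, 1.11 after the GC correction, adjusted p = 0.126, limma). *Tnf*, the gene for tumor necrosis factor, was at 0.474, 0.383, 1.09 and 1.2 in WT-ND and 4.22, 2.03, 3.52 and 4.34 in WT-WD, without overlap (log2 fold change 1.66 ± 0.32, 1.75 after the GC correction, adjusted p = 0.115, limma). *Il18*, which encodes a cytokine released by the epithelium, was at 7.46, 5.99, 13 and 17.3 in WT-ND and 21.8, 13.2, 32.5 and 35 in WT-WD, where WT-WD M2 lay among the WT-ND females (log2 fold change 1.22 ± 0.39, 0.97 after the GC correction, adjusted p = 0.191, limma). The interferon-induced chemokines differed from these. *Cxcl9* was at 1.05, 0.696, 2.8 and 2.39 in WT-ND and 2.18, 1.67, 3.04 and 1.5 in WT-WD, and *Cxcl10* at 0.888, 1, 7.75 and 2.88 and 1.72, 1.09, 3.36 and 1.4, and both overlapped. *Cxcl3* was not analysed here. The 5 members tested had 3 genes higher and 0 lower at an unadjusted p under 0.05, beside 7.27% and 9.24% of all genes. The study names these genes for a comparison of both diets. Its methods describe that comparison as an experiment independent of the one with the knockout line. The 8 libraries here are the wild-type groups beside knockout groups, so their levels are set beside those of a separate experiment. *Tnf* held 6 values of more than 6 digits and *Il18* 2, all in WT-WD. Without the transcripts that held them, *Tnf* left the tested genes and the log2 fold change of *Il18* was 1.28.

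Of 26 other cytokines and inflammatory mediators, 17 passed the filter, and 6 were higher and 1 lower at an unadjusted p under 0.05, with a median log2 fold change of 0.42, or 0.11 after the GC correction. The cytokine *Il6* was at 12.7, 7.44, 7.8 and 3.54 in WT-ND and 15.9, 13.6, 22.5 and 25.7 in WT-WD (log2 fold change 1.33, 0.73 after the GC correction, adjusted p = 0.158, limma). The monocyte chemokine *Ccl2* was at 0.239, 0, 2.26 and 0.941 in WT-ND and 3.08, 2.47, 2.77 and 3.69 in WT-WD (log2 fold change 1.66, adjusted p = 0.176, limma). Both groups were apart, as they were in *Il1a*, and each of the 3 genes held 1 or 2 values of more than 6 digits in WT-WD and left the tested genes without the transcripts concerned. *Nos2*, the inducible nitric oxide synthase, held none and was at 26.5, 19.4, 18.8 and 13.7 in WT-ND and 26.7, 27.4, 39.3 and 56.2 in WT-WD (log2 fold change 0.89, adjusted p = 0.188, limma). Its separation was narrow, from 26.5 in WT-ND M1 to 26.7 in WT-WD M1. Of the 17 genes, 5 were higher and 0 lower without overlap, beside 4.68% and 6.1% of all genes. The chemokines *Cx3cl1* and *Ccl25* overlapped between the diets. *Cx3cl1* was at 38, 46.5, 52.8 and 49.6 in WT-ND and 24.5, 31.3, 29.5 and 44.8 in WT-WD (log2 fold change −0.54, adjusted p = 0.243, limma), and *Ccl25*, which draws T cells to the small intestine, had a log2 fold change of −0.16. Interferon-stimulated genes had 1 of 23 members higher and 1 lower, or 2 and 4 without WT-WD F2, and MHC class II genes 0 of 8 in either direction. Macrophage markers had 3 of 12 higher and 1 lower, with summed levels of 278.8 to 385 in WT-ND and 382 to 548 in WT-WD.

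*Tas1r3*, the shared subunit of the sweet and umami receptors and the gene that gives the study its subject, was at 1.61, 1.69, 2.26 and 1.71 in WT-ND and 7.01, 5.26, 4.73 and 6.35 in WT-WD. Every WT-WD library lay above every WT-ND library (log2 fold change 1.45 ± 0.20, a fold change of 2.72, adjusted p = 0.101, limma, 0.0364 without WT-WD F2 and 0.136 without WT-ND M1). After the GC correction its log2 fold change was 1.63, and without WT-WD F2 the adjusted p was then 0.0542 (limma). It held 3 values of more than 6 digits, in WT-ND M1, WT-ND M2 and WT-WD F2, and left the tested genes without the transcripts concerned. Its partner *Tas1r1* stayed at or below 0.139 and was not tested, and *Tas1r2* was not analysed here. *Trpm5*, the ion channel of taste transduction, was at 3.14, 3.17, 2.66 and 3.18 in WT-ND and 3, 2.64, 2.91 and 4.62 in WT-WD, and *Itpr3*, the calcium release channel of the same pathway, had a log2 fold change of −0.61 (adjusted p = 0.325, limma). Among the 5 tested taste genes, *Tas1r3* was the 1 at an unadjusted p under 0.05, and *Itpr3* was also lower at it without WT-WD F2. The 8 tuft cell genes had 0 in either direction. Enteroendocrine genes had 2 of 14 members higher and 0 lower, or 3 higher without WT-WD F2. *Gcg*, the precursor of glucagon-like peptides, was at 42.6, 26.5, 17.5 and 30.5 in WT-ND and 47, 67.6, 36.4 and 102 in WT-WD (log2 fold change 1.06 ± 0.35, adjusted p = 0.203, limma, 2 values of more than 6 digits, both in WT-WD). *Cck*, the gene for cholecystokinin, had a log2 fold change of 0.75. *Pyy* and *Sct*, which encode peptide YY and secretin, overlapped between the diets.

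**Figure D3:**
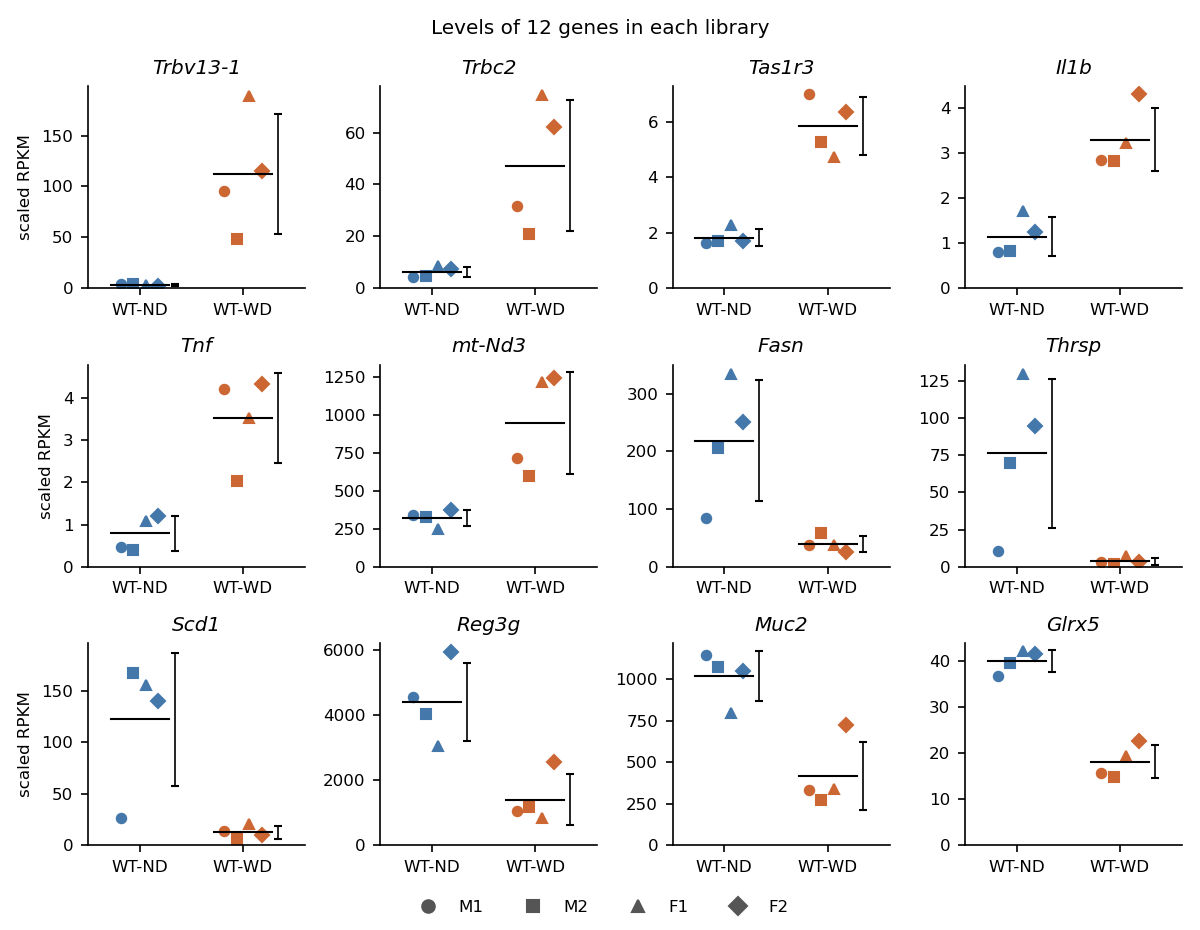
Scaled RPKM (y axes) of 12 genes is plotted for each library of WT-ND (blue) and WT-WD (orange), with a horizontal bar at the mean, an error bar of 1 SD and a symbol for each replicate number. *Trbv13-1* is at 2.15 to 4.18 in WT-ND and 48.6 to 189 in WT-WD, and WT-ND M1 lies below the other WT-ND libraries in *Fasn*, *Thrsp* and *Scd1*.

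The enzymes of cholesterol and fatty acid synthesis were lower in WT-WD. Of 32 listed genes, all were tested and all had a negative log2 fold change, 18 of them at an unadjusted p under 0.05 and 0 in the other direction, beside 9.24% of all genes. The median log2 fold change was −0.66, −0.52 after the GC correction with 14 genes lower, and −0.62 without WT-WD F2 with 17 genes lower. Of all genes, 5.98% were lower after the GC correction and 14% without WT-WD F2. The groups did not overlap in 9 genes, beside 6.1% of all genes that were lower without overlap. The summed level of the list was 1665 to 1878 in WT-ND and 772 to 1513 in WT-WD, so that each WT-WD library lay below each WT-ND library. None of these genes held a value of more than 6 digits. Its median was −0.65 with RLE scaling, −0.62 with upper quartile scaling and −1.13 with no scaling, where the median of all genes fell by 0.42.

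Genes of fatty acid synthesis are given first. *Fasn*, which encodes fatty acid synthase, was at 83.8, 206, 335 and 250.1 in WT-ND and 37.9, 58.1, 38.1 and 24.8 in WT-WD (log2 fold change −2.35 ± 0.41, adjusted p = 0.106, limma, and 0.0459 without WT-WD F2). *Scd1*, the stearoyl-CoA desaturase, was at 26.7, 167, 155 and 139.9 in WT-ND and 13.9, 5.62, 20.2 and 9.94 in WT-WD (log2 fold change −3.09 ± 0.59, adjusted p = 0.114, limma). *Thrsp*, a regulator of lipogenesis outside the list, was at 10.8, 70.2, 129.8 and 94.5 in WT-ND and 2.79, 1.73, 7.23 and 2.83 in WT-WD (log2 fold change −3.92 ± 0.70, adjusted p = 0.106, limma, and 0.048 without WT-WD F2). In these 3 the groups were apart, but WT-ND M1 was low for its group. Without it the log2 fold change was −2.76 for *Fasn*, −3.72 for *Scd1* and −4.69 for *Thrsp* (adjusted p = 0.02, 0.0138 and 0.0113, limma). WT-ND M1 was picked out by its low levels of these same genes. A larger difference without it was therefore fixed in advance and is no further support. After the GC correction the log2 fold change was −2.11, −3.17 and −3.76, and without WT-WD F2 the adjusted p was then 0.0931, 0.0937 and 0.0865 (limma). *Acaca*, the acetyl-CoA carboxylase, was at 4.79, 6.75, 7.59 and 7.82 in WT-ND and 3.2, 3.77, 2.64 and 2.35 in WT-WD (log2 fold change −1.05, adjusted p = 0.126, limma). *Acly*, which makes cytosolic acetyl-CoA from citrate, was at 39.7, 49.5, 67 and 60 in WT-ND and 30.4, 34.3, 23.7 and 14.8 in WT-WD (log2 fold change −1.09, adjusted p = 0.151, limma). *Me1*, a source of NADPH, overlapped through WT-ND M1 alone, at 2.78, 10.7, 13.9 and 12.6 against 3.64, 3.63, 3.96 and 2.03. *Pcx*, the pyruvate carboxylase that supplies oxaloacetate, was at 6.17, 13.6, 22 and 16.1 in WT-ND and 2.7, 3.35, 3.15 and 5.72 in WT-WD (log2 fold change −1.74, adjusted p = 0.126, limma, 0.0433 without WT-WD F2 and 0.0669 without WT-ND M1).

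Genes of cholesterol synthesis follow. *Srebf2*, the gene for the main regulator of sterol synthesis, was at 73.6, 70.6, 65.1 and 71.6 in WT-ND and 42.4, 51.9, 37.6 and 46.3 in WT-WD, without overlap (log2 fold change −0.66, adjusted p = 0.137, limma). *Msmo1*, a sterol demethylation enzyme, was at 174, 144, 166 and 226 in WT-ND and 80.7, 125, 76.1 and 127 in WT-WD (log2 fold change −0.81, adjusted p = 0.175, limma). In both genes every WT-WD library was below every WT-ND library. For *Sqle*, the squalene epoxidase, WT-WD M2 at 77.9 lay within the WT-ND range of 66.3 to 87.1, while the other WT-WD libraries were at 32.4 to 50.0. *Hmgcs1*, an early enzyme of cholesterol synthesis, was at 111, 109, 64.8 and 92 in WT-ND and 88, 165, 54.4 and 67 in WT-WD, overlapping, with WT-WD M2 the highest of the 8 libraries (log2 fold change −0.11, adjusted p = 0.893, limma). In females the median of the list was −0.92 and in males −0.36, and the difference between the sexes passed no adjusted test for any gene.

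**Figure D4:**
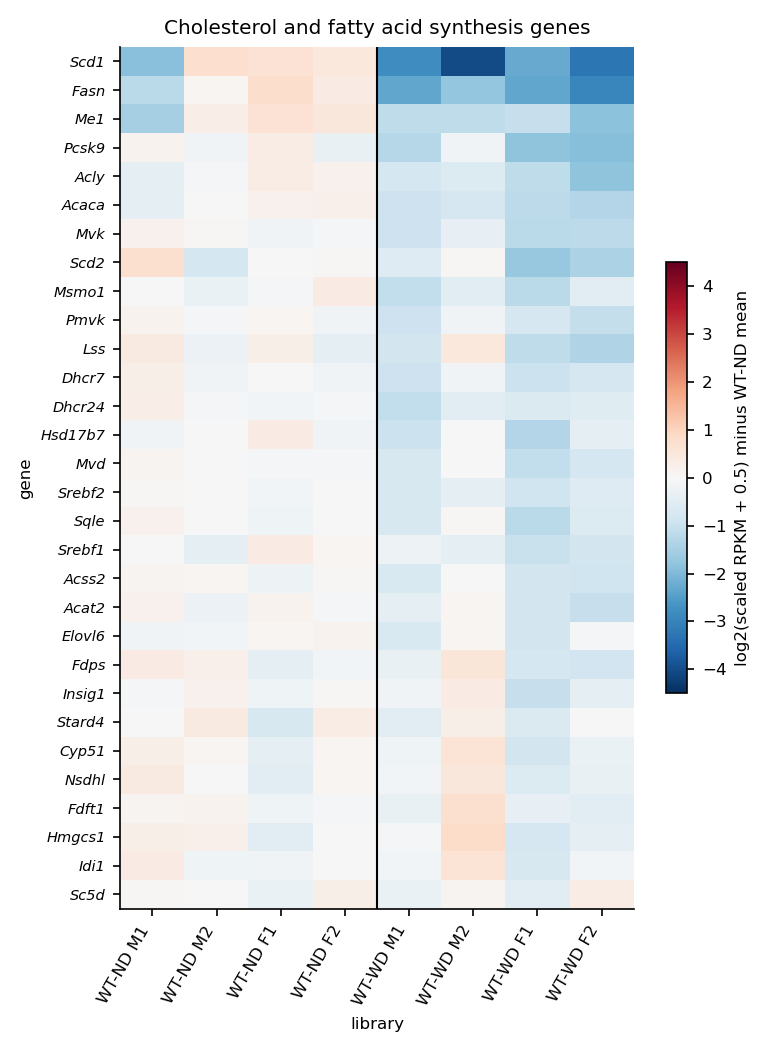
Each cell gives log2(scaled RPKM + 0.5) of a cholesterol or fatty acid synthesis gene (y axis, in the order of its log2 fold change) in 1 library (x axis) minus the mean of the WT-ND libraries, for 30 of the 32 genes, with blue for lower and red for higher. The 3 libraries WT-WD M1, F1 and F2 are blue in nearly all genes, whereas WT-WD M2 is red in several cholesterol genes such as *Hmgcs1*, *Fdft1* and *Idi1*.

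Promoters from RefSeq, of 300 bases each (250 before and 50 after the start) on GRCm38.p6, were found for 22 of the 32 genes. The E-box CACGTG, searched on both strands, was present in 14.3% of their 28 promoters and in 7.15% of all 32851, and the sterol element TCACNCCAC in 3.57% and 1.24%. The promoters of 2 lipogenic genes with large differences and of 1 gene with each match are shown, with matches in capitals, so that the letters can be compared. *Fasn* (chr11:120824498-120824797, minus strand) and *Thrsp* (chr7:97417501-97417800, minus strand) hold neither the E-box nor the sterol element. *Hsd17b7*, a sterol synthesis enzyme (chr1:169969156-169969455, minus strand), holds an E-box, and *Hmgcs1* (chr13:119690101-119690400, plus strand) the sterol element. A match is a description of the letters and no evidence of binding.

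Fasn: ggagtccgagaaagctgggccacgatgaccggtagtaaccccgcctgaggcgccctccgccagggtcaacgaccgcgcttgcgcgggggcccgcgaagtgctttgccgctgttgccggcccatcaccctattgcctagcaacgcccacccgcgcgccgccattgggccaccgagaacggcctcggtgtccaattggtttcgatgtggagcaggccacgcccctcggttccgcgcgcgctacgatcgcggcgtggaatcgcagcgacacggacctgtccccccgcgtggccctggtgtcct

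Thrsp: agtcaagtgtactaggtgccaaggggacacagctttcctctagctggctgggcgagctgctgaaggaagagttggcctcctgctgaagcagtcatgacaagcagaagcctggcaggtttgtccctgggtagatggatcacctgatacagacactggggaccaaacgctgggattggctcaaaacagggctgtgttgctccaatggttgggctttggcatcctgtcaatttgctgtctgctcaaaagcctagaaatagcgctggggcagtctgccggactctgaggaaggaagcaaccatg

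Hsd17b7: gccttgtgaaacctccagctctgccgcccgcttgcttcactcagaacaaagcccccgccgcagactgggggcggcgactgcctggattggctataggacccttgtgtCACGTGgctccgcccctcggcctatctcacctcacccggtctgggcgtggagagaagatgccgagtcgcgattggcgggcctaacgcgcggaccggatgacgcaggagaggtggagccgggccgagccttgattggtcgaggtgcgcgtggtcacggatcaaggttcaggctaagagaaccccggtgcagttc

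Hmgcs1: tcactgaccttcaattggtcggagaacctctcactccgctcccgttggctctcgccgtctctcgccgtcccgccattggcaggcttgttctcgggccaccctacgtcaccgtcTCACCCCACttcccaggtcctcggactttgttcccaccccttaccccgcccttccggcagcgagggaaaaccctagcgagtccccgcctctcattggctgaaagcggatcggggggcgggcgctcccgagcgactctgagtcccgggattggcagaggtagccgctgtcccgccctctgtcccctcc

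Genes of fat tissue were also lower on balance. Adipocyte markers had 3 of 8 members lower and 0 higher, with a median log2 fold change of −1.47, or −1.38 after the GC correction. Their summed level was 37.4, 247, 283 and 220.0 in WT-ND and 81.4, 34.1, 183 and 91 in WT-WD, so that WT-ND M1, the WT-ND library with the least *Fasn*, *Thrsp* and *Scd1*, was also the lowest of its group here. *Plin1*, which coats the lipid droplet of fat cells, was at 2.09, 12.4, 16.8 and 15.3 in WT-ND and 2.02, 0.378, 1.73 and 0.598 in WT-WD (log2 fold change −2.68 ± 0.61, adjusted p = 0.137, limma, and −3.32 with 0.0302 without WT-ND M1). Here too WT-ND M1 was left out for its low levels, so the larger difference without it is no further support. The adipokine *Adipoq* was at 1.3, 25.9, 34 and 38.9 in WT-ND and 3.21, 0.91, 4.72 and 7.3 in WT-WD, and *Fabp4* at 15.2, 86.9, 97.6 and 81.8 and 48.6, 23.1, 109 and 47.6, where the groups overlapped. *Adipoq* held 1 value of more than 6 digits and *Fabp4* 2, all in WT-WD. The part of fat tissue in the lipogenic differences was not tested. When WT-ND M1 was left out, 11 genes passed an adjusted p under 0.05, 4 higher and 7 lower.

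Genes of fatty acid use were mixed. Mitochondrial fatty acid oxidation genes had 5 of 24 members lower and 0 higher, with a median log2 fold change of −0.02. *Cpt2*, which releases fatty acids into the mitochondrial matrix, was at 39.7, 65.5, 41.7 and 41.2 in WT-ND and 10.4, 16.4, 18.4 and 23.2 in WT-WD (log2 fold change −1.45 ± 0.26, adjusted p = 0.106, limma, 0.0364 without WT-WD F2 and 0.219 without WT-ND M1). One of its transcripts held a value of more than 6 digits in WT-WD M2, and without that transcript its log2 fold change was 0.31 (adjusted p = 0.835, limma), the opposite direction. *Cpt1a*, the entry step, had a log2 fold change of −0.31 (adjusted p = 0.437, limma, 3 values of more than 6 digits), and *Hadh* of 0.16. *Ucp2*, a carrier of the inner membrane, was at 344, 356, 317 and 364 in WT-ND and 225, 284, 274 and 265 in WT-WD. Peroxisomal oxidation had 3 of 15 members lower and 0 higher, or 5 lower without WT-WD F2, with a median of −0.08. *Ppard*, a nuclear receptor for fatty acids, was at 101, 59.5, 127 and 122 in WT-ND and 38.5, 57.1, 36.5 and 73.3 in WT-WD (log2 fold change −0.99, adjusted p = 0.184, limma). It was 1 of 2 genes lower among the 13 PPAR receptors and targets, with 0 higher, and 6 were lower without WT-WD F2.

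Fat uptake and chylomicron genes had 1 of 23 members lower and 0 higher. *Apoa1*, an apolipoprotein, was at 2822, 5324, 3294 and 4906 in WT-ND and 2522, 2270.0, 4789.5 and 7599 in WT-WD, and *Fabp2*, the intestinal fatty acid binding protein, at 493, 1774, 505 and 962 and 1302, 1145, 1324 and 4928. In both, WT-WD F2 had the highest level of the 8 libraries, as it did in *Fabp6*. Without it the median of the list was −0.37 in place of −0.10, and 6 members were lower. Sterol absorption and efflux had 0 of 10 members in either direction, and 6 lower without WT-WD F2, among them *Abcg8*, a sterol exporter (log2 fold change −0.77 with and −1.19 without that library). Bile acid uptake genes had 2 of 11 members lower and 0 higher, or 4 lower without WT-WD F2, with a log2 fold change of −0.63 for *Fabp6* and −1.28 without WT-WD F2. Sugar uptake and metabolism had 1 of 17 higher and 1 lower, or 1 and 4 without WT-WD F2. Amino acid and peptide uptake had 4 of 15 lower and 0 higher, or 9 lower without that library, led by the brush border peptidase *Anpep* at 3126, 3387, 3324 and 4366 in WT-ND and 1058, 1005, 2184 and 2446 in WT-WD (log2 fold change −1.19 ± 0.38, adjusted p = 0.193, limma).

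Genes of epithelial defence were lower in WT-WD on balance. Of 20 tested, 17 had a negative log2 fold change, 5 of them at an unadjusted p under 0.05 and 0 in the other direction, and 10 without WT-WD F2. The median was −0.66, and −0.69 after the GC correction. *Reg3g*, a lectin that kills Gram-positive bacteria, was at 4552, 4019.7, 3058 and 5929.7 in WT-ND and 1038, 1169.8, 823 and 2538 in WT-WD, without overlap (log2 fold change −1.76 ± 0.41, adjusted p = 0.137, limma, 0.0364 without WT-WD F2 and 0.31 without WT-ND M1). Its relative *Reg3b* was at 7048, 5891, 4365 and 7741 in WT-ND and 1695, 2101, 2089 and 9558 in WT-WD. There 3 WT-WD libraries were below and WT-WD F2 above the whole WT-ND range, and the adjusted p was 0.372 with and 0.0401 without WT-WD F2 (limma). *Saa2*, a serum amyloid A protein made by the gut, was at 30.5, 18.4, 11.9 and 35.1 in WT-ND and 6.38, 2.31, 3.48 and 11.4 in WT-WD (log2 fold change −2.04, adjusted p = 0.137, limma). *Saa1* was at 632, 466, 332 and 1132 and 135, 39.6, 166 and 415, with an overlap through WT-WD F2. *Saa1* and *Saa2* are near-identical copies, and reads may have been divided between them. *Fut2*, which fucosylates the epithelial surface, was at 11, 3.96, 39.5 and 32.1 in WT-ND and 1.28, 0.841, 1.92 and 18.6 in WT-WD (log2 fold change −2.31, adjusted p = 0.256, limma), and *Duox2*, a producer of hydrogen peroxide, had a log2 fold change of −1.37. Paneth cell markers had 0 of 8 members in either direction.

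Goblet cell genes had 4 of 11 members lower and 0 higher, with a median log2 fold change of −0.61, or −0.47 after the GC correction, and 6 lower without WT-WD F2. *Muc2*, the main secreted mucin, was at 1148, 1074, 799 and 1050.3 in WT-ND and 335, 271, 341 and 725 in WT-WD, without overlap (log2 fold change −1.38 ± 0.32, adjusted p = 0.137, limma, 0.0364 without WT-WD F2 and 0.31 without WT-ND M1). The log2 fold change was −1.31 after the GC correction. *Muc2* held 6 values of more than 6 digits, all in WT-WD, and without the transcripts concerned its log2 fold change was −2.14 (adjusted p = 0.212, limma). The secreted proteins *Zg16* and *Tff3* held none and overlapped, with log2 fold changes of −0.79 and 0.05. *Muc3a*, a membrane mucin chosen after its values were seen, was at 63.6, 53.6, 54.4 and 47 in WT-ND and 26, 23.9, 16.5 and 28.1 in WT-WD (log2 fold change −1.21 ± 0.19, adjusted p = 0.106, limma, 2 values of more than 6 digits). Without the transcripts concerned it was −1.28. The related gene *Muc3* had a mean of 420 RPKM over the 8 libraries, against 42.2 for *Muc3a*, and held 1 such value, in WT-ND F2. Without the transcript concerned, *Muc3* passed an adjusted p under 0.05 (limma) as higher in WT-WD, the opposite direction. Whether reads were divided between the 2 genes was not tested.

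Tight junction genes had 6 of 15 members lower and 0 higher, with a median of −0.54, or −0.45 after the GC correction, and 9 lower without WT-WD F2. Of the 15, 4 held values of more than 6 digits, namely *Cldn7*, *Tjp1*, *Tjp3* and *Ocln*, all among the 6 lower. The count thus rests largely on genes with such values. *Tjp1* had a log2 fold change of −0.65, or −0.39 without the transcript concerned (adjusted p = 0.379, limma). *Cldn7* was at 694, 891, 642 and 757 in WT-ND and 324, 375, 299 and 518 in WT-WD (log2 fold change −1.0 ± 0.24, adjusted p = 0.137, limma). It held 3 values of more than 6 digits, and without the transcripts concerned its log2 fold change was −0.11 (adjusted p = 0.859, limma). *Cldn3*, another sealing claudin, held none and was at 551, 777, 489 and 574 in WT-ND and 269, 301, 361 and 503 in WT-WD (log2 fold change −0.76, adjusted p = 0.21, limma). The scaffold gene *Tjp3* was at 111, 116, 70.9 and 103 in WT-ND and 29.1, 33.6, 45.7 and 79.5 in WT-WD, with WT-WD F2 inside the WT-ND range. It held 2 values of more than 6 digits, in WT-WD M1 and WT-WD F2, and without the transcripts concerned its log2 fold change was −1.13. *Ocln*, the gene for occludin, was at 28.5, 35.9, 14.1 and 28 in WT-ND and 7.47, 10.7, 12.9 and 22.7 in WT-WD, held 5 such values in WT-WD, and left the tested genes without them. Enterocyte markers were lower beside these lists, in 3 of 9 members with 0 higher, and their summed level was 6253 to 8792 in WT-ND and 2958 to 7045 in WT-WD. *Epcam*, carried by all epithelial cells, was at 1349.9, 1285, 1116 and 1542 in WT-ND and 618, 719, 679 and 1332 in WT-WD, and *Vil1*, the brush border villin, at 838, 686, 622 and 911 and 335, 483, 384 and 741. The part of the epithelial share of the tissue in the defence, goblet and junction genes was not tested. Smooth muscle markers had 0 of 10 in either direction, or 2 higher without WT-WD F2, with summed levels of 1437 to 4261 in WT-ND and 1330 to 5421 in WT-WD.

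Transcripts of the mitochondrial genome were higher in WT-WD. Of 13 protein-coding genes, 11 were higher (beside 7.27% of all genes) and 0 lower at an unadjusted p under 0.05. The groups did not overlap in 11, beside 4.68% of all genes that were higher without overlap. The median log2 fold change was 1.08, the summed level 19194 to 34826 scaled RPKM in WT-ND and 37724 to 78513 in WT-WD. *mt-Nd3*, a subunit of complex I, was at 339, 328, 251 and 376 in WT-ND and 717, 598, 1221 and 1249 in WT-WD (log2 fold change 1.49 ± 0.29, adjusted p = 0.116, limma, 0.0464 without WT-WD F2 and 0.286 without WT-ND M1). After the GC correction its log2 fold change was 0.79 (adjusted p = 0.417, limma, and 0.245 without WT-WD F2). *mt-Nd4l*, of the same complex, was at 927, 749, 613 and 1020.3 in WT-ND and 1619, 1429.6, 2003 and 2049.7 in WT-WD. The subunits with the highest level, *mt-Co1* and *mt-Co2* of complex IV, overlapped, with log2 fold changes of 0.86 and 0.95. These transcripts have a median GC content of 37.1%, and after the GC correction their median log2 fold change was 0.60 with 2 members higher, beside 4.72% of all genes. Nuclear genes of the respiratory chain did not share the direction, with 1 of 26 higher and 4 lower and a median of −0.08, or 0 and 10 without WT-WD F2. *Atp5b*, of the ATP synthase, was at 1839, 1884, 1635 and 2079 in WT-ND and 1306, 1281, 1526 and 1814 in WT-WD. Without scaling of the libraries, the median of the mitochondrial transcripts was 0.61.

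The genes with the largest differences at an unadjusted p under 0.001, a mean of at least 2 RPKM and no overlap numbered 54 higher and 75 lower in WT-WD, of which 21 and 28 were unnamed gene models or antigen receptor segments. Besides those above, the higher ones by this rule included *Psip1*, a chromatin-bound coactivator, at 3.33, 2.29, 4.77 and 3.46 in WT-ND and 10.6, 9.25, 8.99 and 7.37 in WT-WD (log2 fold change 1.29, 0.95 after the GC correction, adjusted p = 0.106, limma). The nuclear RNA *Malat1* was at 27, 27.5, 30.8 and 19.9 in WT-ND and 67.3, 48.3, 90.6 and 46 in WT-WD (log2 fold change 1.21, 0.92 after the GC correction, adjusted p = 0.117, limma). The pseudogenes *Rpl15-ps5* and *Rpl32-ps*, the small nucleolar host *Snhg1* and *Fam92a* had log2 fold changes of 1.84, 1.12, 1.14 and 1.20, or 1.95, 1.10, 0.75 and 1.12 after the GC correction, and reads of the pseudogenes may belong to their parent genes. The lower ones included *Sp9*, a zinc finger factor, at 1.69, 6.22, 6.37 and 2.5 in WT-ND and at most 0.359 in WT-WD. *B4galnt4*, a glycosyltransferase, was at 14.4, 14.2, 20.9 and 16 in WT-ND and 5.04, 7.4, 4.99 and 8.04 in WT-WD (log2 fold change −1.31, adjusted p = 0.106, limma). *Nkain1* and the antisense RNAs *Anxa11os* and *Acss2os* had log2 fold changes of −1.41, −1.28 and −1.96. The use of strand in counting is not given in the sources used here, so antisense and sense reads cannot be told apart. Outside the rule, 2 genes with narrow groups were chosen after their values were seen. *Glrx5*, which takes part in iron-sulfur cluster assembly, was at 36.8, 39.5, 42.2 and 41.5 in WT-ND and 15.6, 14.9, 19.3 and 22.6 in WT-WD, and *Gpaa1*, of GPI anchor attachment, at 43.2, 46.1, 48.8 and 44.3 and 17.6, 20.7, 23.3 and 24.2 (log2 fold changes −1.14 and −1.08, adjusted p = 0.104 and 0.101, limma).

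Several lists showed little. Crypt stem cell, cell proliferation, glutathione and NRF2 target and retinoid metabolism genes had 0 members of 11, 18, 18 and 14 at an unadjusted p under 0.05 in either direction. Without WT-WD F2 these became 1 and 0, 1 and 0, 1 and 4, and 1 and 1 members higher and lower. The stem cell receptor *Lgr5*, named by the study, was at 5.11, 2.9, 2.16 and 2.94 in WT-ND and 6.29, 7.01, 3.51 and 2.01 in WT-WD, and overlapped. Circadian clock genes had 2 of 16 members higher and 0 lower, unfolded protein response genes 1 of 20 in each direction (2 lower without WT-WD F2), and cytochrome P450 genes 1 of 15 lower and 0 higher. That member was *Cyp4b1*, a fatty acid hydroxylase, at 17, 36.3, 43.5 and 22.1 in WT-ND and 7.95, 9.13, 16.5 and 11.8 in WT-WD. B cell, endothelial, pancreatic acinar and erythroid markers had 0 of 8, 7, 2 and 4 in either direction, and endothelial markers 2 higher without WT-WD F2. Enteric neuron and glia markers had 2 of 10 higher and 0 lower, or 4 higher without WT-WD F2, and neutrophil markers 1 of 2 lower, namely *Mpo*, the gene for myeloperoxidase, at 8.94, 6.4, 5.13 and 7.45 and 3.32, 4.95, 1.57 and 4.05.

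**Figure D5:**
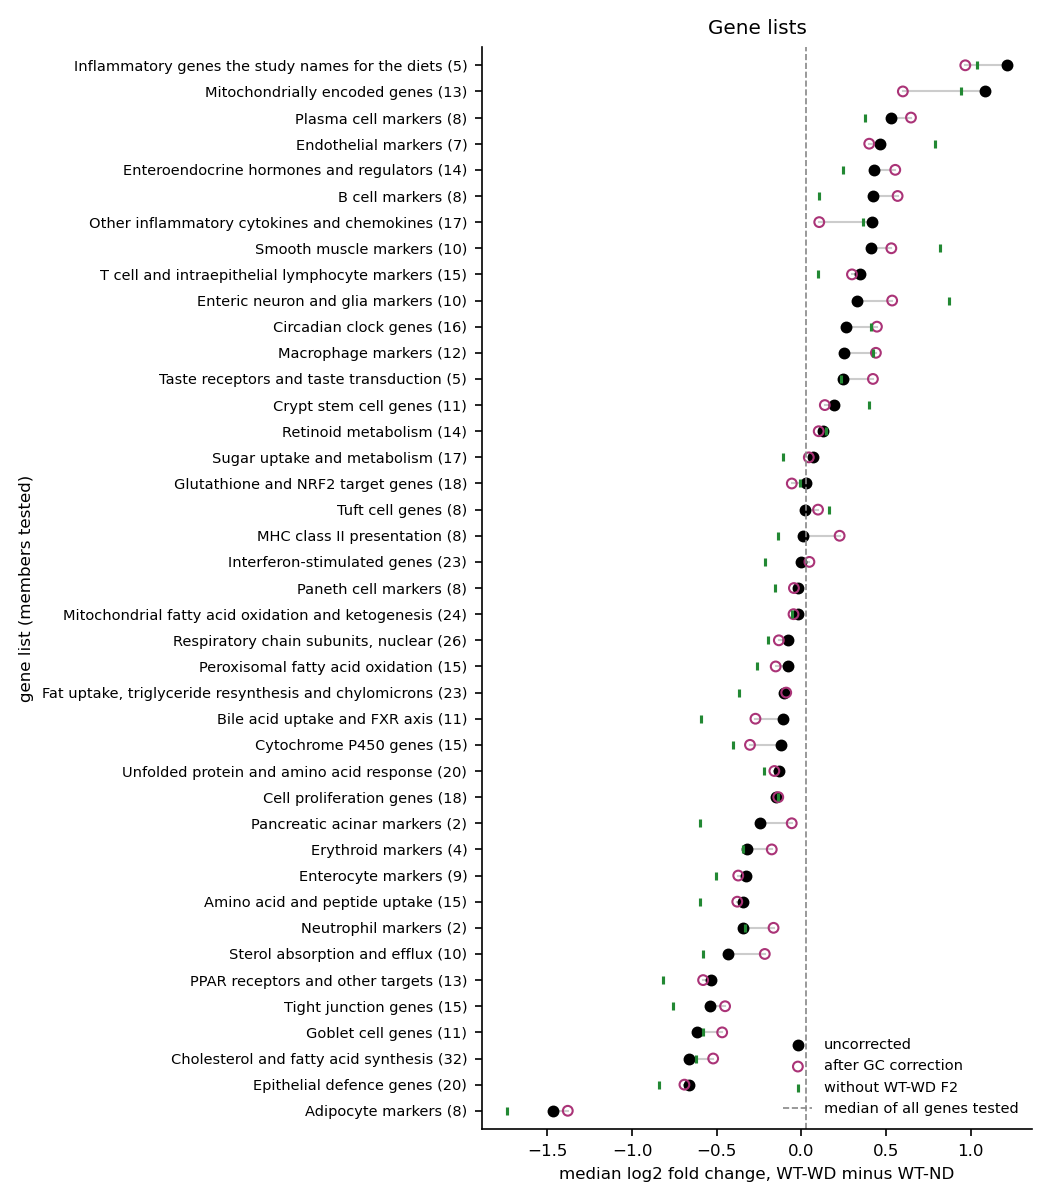
The median log2 fold change between WT-WD and WT-ND (x axis) is plotted for 41 gene lists (y axis, with the number of members tested), uncorrected (black), after the GC correction (open circles) and without WT-WD F2 (green ticks), with a dashed line at the median of all genes. Adipocyte markers lie lowest at −1.47, and the mitochondrially encoded genes move from 1.08 to 0.60 with the correction.

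The diet difference was tested for a dependence on sex with an interaction term. Among the 18576 genes, 0 passed an adjusted p under 0.05 (limma), and 738 (3.97%) had an unadjusted p under 0.05. The smallest p values belonged to the mitochondrial tRNA *mt-Ty*, the amino acid oxidase *Il4i1* and the immunoglobulin segments *Igkv4-70*, *Igkv4-69* and *Ighv1-20*. *Il4i1* was at 0.188, 0.135, 10.2 and 10.3 in WT-ND and 3.8, 2.27, 3.47 and 4.81 in WT-WD, low in the WT-ND males and high in the WT-ND females (log2 fold change 2.39 in males and −1.29 in females, adjusted p for interaction = 0.494, limma). *Igkv4-70* was at 11, 9.28, 6.11 and 3.41 in WT-ND and 14.6, 9.7, 81.3 and 122 in WT-WD, high in the WT-WD females (log2 fold change 0.22 in males and 4.23 in females, adjusted p for interaction = 0.494, limma). *Trbv13-1* had log2 fold changes of 3.93 in males and 5.57 in females. With 2 libraries of each sex in each group, a missed threshold does not show that the sexes responded alike.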

How the data were processed

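Total RNA of the terminal ileum was sequenced on the Ion Proton after poly(A) selection and depletion of ribosomal RNA. Per the study's methods, the authors mapped the reads to the mouse genome with STAR in Partek Flow and quantified Ensembl transcripts. They deposited values per transcript, per sample and in a table of the series, and both agreed within 4.99e-08. The deposited table is titled as counts but its values are not whole. The unit was taken to be RPKM, and how the values were normalized is not given in the sources used here. Strand use and tool settings are not given in the sources used here.

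Transcripts were summed to 23299 genes by name. Each library was divided by a TMM-type factor, trimmed by 30% on ratios and 5% on levels. The 18576 genes that reached 1 RPKM in 2 or more libraries entered the test, made on log2(scaled RPKM + 0.5) with limma 3.58.1 in R 4.3.3 (trend, diet as the only term) and Benjamini-Hochberg adjustment. Fold changes are on this scale and understate the change of low genes. The threshold for a called gene was a 2-fold difference together with an adjusted p below 0.01. A further fit added sex and its interaction with diet. As the deposited values were taken as RPKM, no count model was used. Depth was inferred from the step between low values, with 86.9% to 88.2% of the compared values whole within 0.02 of a read. In the main fit, p-values set the diet difference against the spread between the 4 mice within each group, males and females together. That spread is pooled over both groups and moderated across genes. On simulated data with the levels of WT-WD against WT-ND over 18576 genes, 58 of 200 genes changed by 1.5 on the log2 scale and 178 of 200 changed by 3.0 were recovered, with 1 and 0 false calls. The simulated noise was normal and independent between genes, while genes of the real libraries deviate together, as in the trend with GC content. The recovery and false calls therefore need not hold for the real data.

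Genes were named by rule: up to 10 in each direction with the largest change, no overlap and a mean of at least 2 RPKM, filled from an unadjusted p under 0.001, then those the study names for the diets, up to 4 of each list (otherwise the 2 of highest level) and up to 5 by interaction. Others in the text were chosen after their values were seen. Members and lists were chosen with earlier results of these data known. Motifs were meant for called genes, and as 1 gene was called they were sought in the synthesis list. The correction for GC content (lowess within each library, span 30%) and its combinations were added after seeing the data. Alternatives covered scaling, pseudocount, filter, sex, replicate number, other libraries, values of more than 6 digits and each library left out. Results for a few genes are not reported here.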

Additional observations from a re-analysis of the deposited data

Results flagged for a closer look

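In 18 of 224 groups of 4 libraries, 1 library lay so far from the other 3 that its gap, divided by the range, exceeded Dixon's critical value. Chance gives about 5% of groups. WT-WD F2 stood out in *Anxa11os* (6.39 scaled RPKM), *Fabp2* (4928.5), *Reg3b* (9558), *Gpx2* (885), *Ccl5* (27.9) and *Cd79b* (13.9), and in the number of genes with at least 1 RPKM (15205). WT-ND M1 was low in *Scd1* (26.7) and *Fabp4* (15.2). WT-ND M2 stood out in *Cpt2* (65.5) and *Ech1* (209), and WT-WD F1 in *Ech1* (258). WT-ND F1 stood out in *Tas1r3* (2.26), *Trpm5* (2.66), *Pyy* (24.1), *Defa30* (1918) and *Ctrb1* (7.91), and WT-ND F2 in *Enpep* (850.5).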

How the results depend on the processing

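The count of called genes (1) became 622 without scaling of the libraries, 3 with sex as a covariate, 2 without the transcripts holding values of more than 6 digits, 0 in males or females alone, 0 after the GC correction without WT-WD F2, 1132 at an adjusted p under 0.2 with no minimum fold change, and 0 to 1 when each library was left out. The count at an adjusted p under 0.05 (1) became 2 with RLE or upper quartile scaling, a pseudocount of 1, a mean of at least 5 RPKM or the GC correction, 3483 without scaling (37 higher, 3446 lower), 3 with sex as a covariate, 11 with the spread taken from 13 libraries, 3 without values of more than 6 digits, 3 in males, 0 in females, and 14 after the GC correction without WT-WD F2. When each library was left out it was 1 to 426, with 426 without WT-WD F2, 11 without WT-ND M1 and 2 without WT-WD M1. Without scaling the median of all genes fell by 0.42 and 2.36% of genes at an unadjusted p under 0.05 were higher, against 44.0% as reported. The interaction count (0) was 0 to 1 when each library was left out. The cause of these changes was not tested.

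With the replicate block, 0 genes were called (adjusted p of *Trbv13-1* 0.0272) and 3 passed an adjusted p under 0.05 (*Trbv13-1*, *Trbc1* and *Trbc2*), and 0 and 4 with the GC correction and the replicate block. Deviations of libraries with the same number correlated at −0.00743 to 0.475, and 3 of the 4 WT-ND libraries (M2, F1 and F2) correlated best with their own number, a hint from the data, while WT-ND M1 correlated best with WT-WD M2. As 1 of the 4 pairs was below 0.1, the numbers were not taken to pair the mice. Among 3691 values of named genes under alternatives, held against an adjusted p of 0.05, 3444 kept their side and size, 117 moved, 128 newly passed, 2 no longer passed (*Trbv13-1* in males and in females) and 0 that passed changed direction. Held against 0.01, *Trbv13-1* also missed it with the replicate block, with both combined GC corrections and in 6 of 8 leave-outs. Precision is limited by depth for genes near 1 RPKM.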
